A study of Homo sapiens with 8 samples.

Results

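The outermost 1 Mb of each human autosome arm, the subtelomeric segment, was examined in an accessibility map of HEK293 cells. A peak of open chromatin was counted as subtelomeric where its midpoint lay within 1 Mb of either end of its chromosome in GRCh38. That rule uses position alone, and 2475 of the 129536 peaks in the deposited table met it (1.91%). They lay on 39 of the 44 autosomal arms, with 15 to 115 peaks per arm and a median of 63.0. The short arms of chromosomes 13, 14, 15, 21 and 22 held no such peak.

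HEK293 is a line derived from human embryonic kidney. The 8 libraries came from cells carrying eGFP-YAP, a fluorescently tagged form of the transcriptional regulator YAP, per the genotype field and the series description. Sample titles name only the parental line, and the library names carry the code wt, whose meaning is not given. In 4 libraries the cells had received vehicle, and in 4 they had been exposed for 1 h to 0.2 M of sorbitol, a sugar alcohol that raises the osmotic pressure of the medium and shrinks cells. The series description gives a serum starvation of 1 h before sorbitol. It is not repeated in the protocols of these libraries, so whether it applied to both groups is not stated. The assay was Omni-ATAC-seq, where a transposase cuts and tags open DNA in isolated nuclei, with 50000 cells per library. Libraries are named here by group and replicate number, and neither separate cultures nor separate days are stated, so p-values measure the spread between these libraries, which may be technical.

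Human chromosomes end in arrays of the hexamer repeat TTAGGG, bound by the shelterin proteins. Inside them lie segments duplicated between many chromosome ends, with copies of the DDX11L, WASH and RPL23A pseudogene families, and then unique sequence that on many arms is rich in genes and in GC. Transcription from subtelomeric promoters yields TERRA, a noncoding RNA that reads into the telomere repeat. Open chromatin in these segments is found mostly at promoters, at transfer RNA genes and at enhancers, as elsewhere in the genome.

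Promoter sequences at 8 of the named peaks are given to show the letters that recur there. The first 6 sequences below precede genes whose gene-end peak was lower after sorbitol, and the last 2 precede genes whose peak was higher. Each line gives the 150 bases just before the RefSeq gene start (GRCh38.p14), read 5′ to 3′ on the gene's strand. Capitals mark CCGGAA or its reverse complement TTCCGG, the core recognised by transcription factors of the ETS family. This motif was chosen after the results had been seen. The windows are ZNF276 (chr16:89720852-89721001, plus strand), ZNF274 (chr19:58182911-58183060, plus), RTEL1 (chr20:63658162-63658311, plus), YBEY (chr21:46286192-46286341, plus), ZNF140 (chr12:133080773-133080922, plus), UBE2M (chr19:58558612-58558761, minus), FAM110C (chr2:46506-46655, minus) and SNTG2 (chr2:950699-950848, plus).
ZNF276: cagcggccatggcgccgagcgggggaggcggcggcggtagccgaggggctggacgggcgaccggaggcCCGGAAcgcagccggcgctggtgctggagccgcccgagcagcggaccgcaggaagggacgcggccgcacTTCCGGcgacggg
ZNF274: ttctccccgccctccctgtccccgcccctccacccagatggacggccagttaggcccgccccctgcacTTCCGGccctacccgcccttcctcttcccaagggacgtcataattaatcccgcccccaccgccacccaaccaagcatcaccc
RTEL1: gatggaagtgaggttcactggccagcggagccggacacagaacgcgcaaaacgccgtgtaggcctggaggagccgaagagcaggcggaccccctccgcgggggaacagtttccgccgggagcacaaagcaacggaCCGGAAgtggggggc
YBEY: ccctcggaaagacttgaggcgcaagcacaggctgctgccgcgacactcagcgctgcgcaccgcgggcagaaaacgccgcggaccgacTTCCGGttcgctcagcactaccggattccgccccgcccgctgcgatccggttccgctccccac
ZNF140: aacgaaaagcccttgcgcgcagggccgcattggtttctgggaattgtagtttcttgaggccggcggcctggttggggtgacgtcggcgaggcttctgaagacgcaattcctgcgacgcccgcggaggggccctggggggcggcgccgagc
UBE2M: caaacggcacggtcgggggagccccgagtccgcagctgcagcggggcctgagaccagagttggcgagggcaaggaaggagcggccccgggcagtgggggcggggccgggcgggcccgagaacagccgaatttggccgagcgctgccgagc
FAM110C: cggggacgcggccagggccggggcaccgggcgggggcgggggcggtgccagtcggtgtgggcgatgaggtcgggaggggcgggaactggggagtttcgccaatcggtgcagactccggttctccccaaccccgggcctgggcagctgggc
SNTG2: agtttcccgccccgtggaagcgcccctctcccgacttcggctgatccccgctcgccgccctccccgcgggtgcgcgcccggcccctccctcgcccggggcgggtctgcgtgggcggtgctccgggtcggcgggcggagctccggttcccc
The core was present in 4 of the 6 windows at peaks that fell and in neither of the windows at peaks that rose. ZNF276 carried 2 cores, at 82 and 13 bases before the gene start. In RTEL1 the core began 15 bases before the start, in YBEY 63 and in ZNF274 82. GC content of these 8 windows ran from 66.7% in ZNF140 and RTEL1 to 80.0% in ZNF276 and SNTG2.

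All 2475 subtelomeric peaks passed the filter on low counts and were tested. Accessibility of the outer chromosome segments was lower after sorbitol. With edgeR's quasi-likelihood test and Benjamini-Hochberg adjustment over all 129487 tested peaks, 805 subtelomeric peaks fell (32.5%) and 188 rose (7.60%). Over all tested peaks 29.1% were called, with 13.1% lower (17016 peaks) and 16% higher (20701 peaks), so the subtelomeric split lay on the other side of the genome's. The median log2 fold change of subtelomeric peaks was -0.25, against 0.01 for all tested peaks and 0.02 for autosomal peaks farther in. A negative value was found for 69.7% of subtelomeric peaks. All 4 sorbitol libraries lay below all 4 vehicle libraries at 627 subtelomeric peaks (25.3%, against 9.47% of all tested peaks). The reverse held at 181 (7.31%, against 17.3%). Changes past the threshold and at least 2-fold were few, with 71 peaks lower and 54 higher, where the shares over all tested peaks were 0.881% and 5.27%.

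The median difference of subtelomeric peaks from the vehicle mean was 0.03, 0.01, -0.04 and 0.01 in the vehicle libraries on a log2 scale, after TMM scaling. In the sorbitol libraries it was -0.21, -0.23, -0.23 and -0.26. The groups did not overlap. Factors computed from gene-end peaks alone moved the median of all tested peaks to 0.19 and that of subtelomeric peaks to -0.08, and counts became 533 lower and 329 higher. Under 6 scalings, the subtelomeric median minus the median of all tested peaks was between -0.26 and -0.23. Of the subtelomeric peaks called, 18.9% were higher in the main test and 38.2% with gene-end factors.

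The share of a library's counts lying in subtelomeric peaks was 3.22%, 3.07%, 2.92% and 3.06% in vehicle and 2.94%, 2.86%, 2.93% and 2.82% after sorbitol. The means were 3.07% ± 0.120 and 2.89% ± 0.0600 (SD, n = 4), and the groups overlapped. A single stretch of 1p held a large part of those counts. At 1p, 5 peaks between positions 629137 and 634906 lie on nuclear copies of mitochondrial genes (MTND1P23 to MTCO3P12) and held 24.0% of all subtelomeric counts. Reads from the mitochondrial genome cannot be told apart from these copies where the sequences match. All 5 rose, with log2 fold changes of 0.23 to 0.30 (edgeR adjusted p 0.00264 to 0.00989). Without them the share was 2.45%, 2.39%, 2.36% and 2.49% in vehicle against 2.09%, 2.09%, 2.09% and 2.02% after sorbitol. That is a difference of -0.352 percentage points, with no overlap.

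Distance from the end was examined next. Peaks fell more often than they rose in every distance class out to 10 Mb. Within 100 kb of the end, 64 of 160 peaks fell (40.0%) and 5 rose (3.12%), with a median log2 fold change of -0.32. From 100 to 250 kb the counts were 78 lower and 18 higher of 305, and the median was -0.18. The 250 to 500 kb class had 211 lower and 40 higher of 570 (median -0.27). From 500 to 750 kb, 244 fell and 64 rose of 702 (median -0.26), and from 750 to 1000 kb, 208 fell and 61 rose of 738 (median -0.23). There was thus no steady gradient inside the outer 1 Mb.

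The 1 Mb limit did not mark a change. The next 1 Mb inward, with 2440 peaks, had 32.7% lower and 6.72% higher and a median of -0.26. Between 2 and 5 Mb the median was -0.16, between 5 and 10 Mb -0.11 and beyond 10 Mb 0.05, with 11.2% lower and 17.5% higher. In the 10 kb just inside the limit, 10 of 33 peaks fell and 3 rose (median -0.35). In the 10 kb just outside it, 13 of 33 fell and 2 rose (median -0.33).

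**Figure D1:**
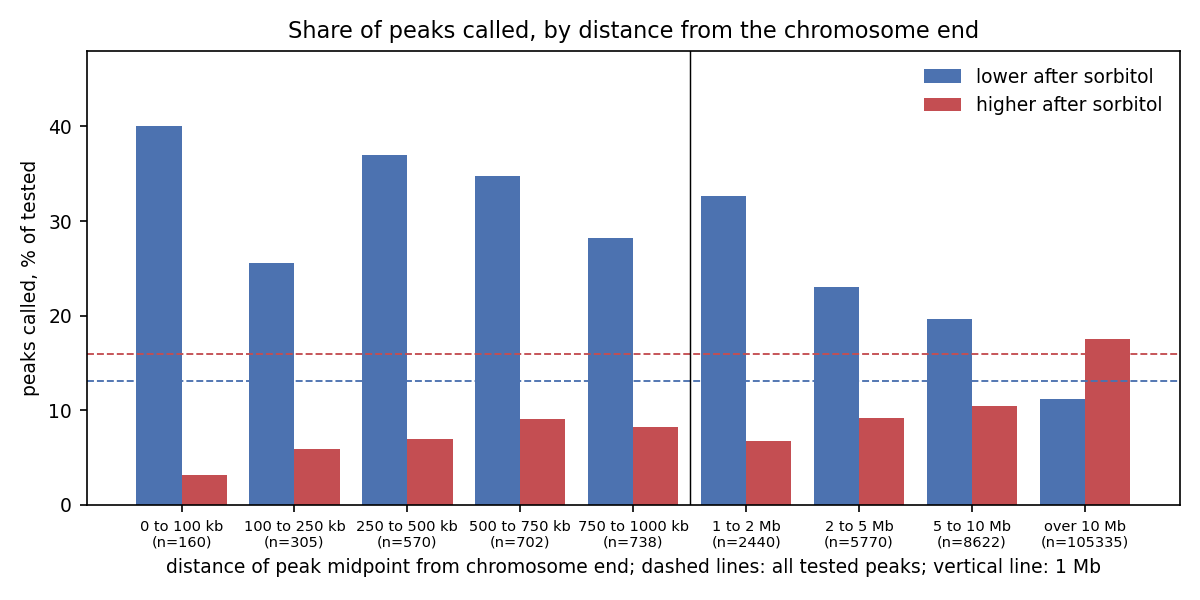
Share of tested peaks lower (blue) or higher (red) after sorbitol, in percent, by distance of the peak midpoint from the chromosome end, with dashed lines for all tested peaks and a vertical line at 1 Mb. The lower share is 25.6% to 40.0% in the 5 classes inside 1 Mb and 11.2% beyond 10 Mb.

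Gene number followed a different course along the segment. Protein-coding genes per Mb numbered 6.92 in the outermost 100 kb, 14.2 from 100 to 250 kb, 18.2 from 250 to 500 kb and 20.7 from 500 to 750 kb, averaged over the 39 arms. From 750 to 1000 kb there were 17.2 genes per Mb, from 1 to 2 Mb 15.4, and from 5 to 10 Mb 8.79. The class closest to the end therefore had the fewest genes and the highest share of lower peaks among the 5 classes. That share rested on peaks within 12 kb of the end, described below. From 12 to 100 kb it was 31.7%, under the 37.0% from 250 to 500 kb and the 34.8% from 500 to 750 kb. The rates per Mb count each class's full length, including bases unknown in GRCh38. Peak number rose over the 5 classes, from 41.0 per Mb in the outermost 100 kb to 75.7 in the innermost class.

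Local gene density was measured as the protein-coding genes with a midpoint within 250 kb of a peak. Among subtelomeric peaks with 20 or more such genes, 223 of 383 fell (58.2%) and 9 rose, with a median log2 fold change of -0.49. With 10 to 19 genes, 42.3% fell, and with 5 to 9 genes 25.8%. The share was smallest with 1 to 4 genes, where 99 of 643 peaks fell (15.4%), 82 rose and the median was -0.06. Peaks with no protein-coding gene in the window did not continue that order. Of these 85 peaks, 21 fell (24.7%) and 6 rose, with a median of -0.24. Ends of other kinds of gene were common among them. Gene-end peaks made up 41.2%, against 5.81% in the same band farther than 1 Mb from an end. The 14q end, with no protein-coding gene in its outer 1 Mb, had 39 subtelomeric peaks, 82.1% of them at gene ends, and a median of -0.39. The band was not split by arm, so it may largely describe that 1 end. In the whole band the median was -0.36 at 35 gene-end peaks, -0.28 at 24 inside genes and 0.03 at 26 intergenic ones. Lower shares were 34.3%, 16.7% and 19.2%, against 9.49%, 3.02% and 2.85% farther in.

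Autosomal peaks farther than 1 Mb from an end had a smaller lower share at each of these densities. The shares were 48.5% with 20 or more genes, 34.1% with 10 to 19, 16.9% with 5 to 9, 7.07% with 1 to 4 and 3.29% with none. The corresponding medians were -0.37, -0.26, -0.07, 0.09 and 0.17, against -0.49, -0.33, -0.18, -0.06 and -0.24 near the ends. These bands are a description over peaks that share libraries, and no test was made between them.

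**Figure D2:**
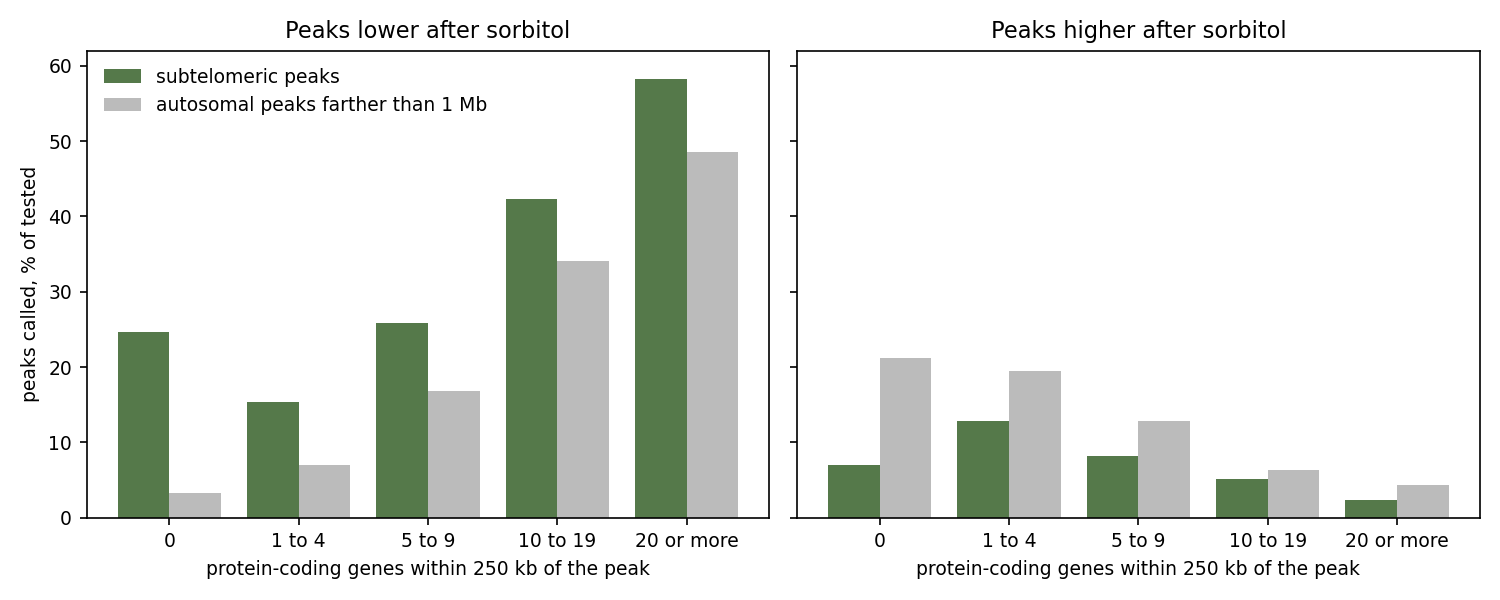
Share of peaks lower (left) or higher (right) after sorbitol, in percent of tested peaks, by the number of protein-coding genes within 250 kb, for subtelomeric peaks (green) and autosomal peaks farther than 1 Mb from an end (grey). The green lower share runs from 15.4% with 1 to 4 genes to 58.2% with 20 or more and stands above grey in every band, most widely with 0 genes (24.7% against 3.29%).

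Position within or outside genes was the next property. Gene-end peaks, those no more than 1 kb from a RefSeq gene's start or end, made up 35.6% of subtelomeric peaks and 19.4% of all peaks. Of 881 subtelomeric gene-end peaks, 450 fell (51.1%) and 44 rose, with a median log2 fold change of -0.34. Inside genes 259 of 1101 fell (23.5%) and 102 rose (median -0.19). In intergenic sequence 96 of 493 fell (19.5%) and 42 rose (median -0.17). The lower shares in the same classes farther than 1 Mb from an end were 32.4%, 8.28% and 7.83%, with medians of -0.17, 0.08 and 0.06. From 1 to 2 Mb alone they were 52.2%, 23.2% and 24.5%, with medians of -0.39, -0.19 and -0.20, so these shares were not particular to the outer 1 Mb. Peaks inside genes supplied 54.3% of the subtelomeric peaks that rose, and gene-end peaks 55.9% of those that fell.

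Strength differed as well. The median subtelomeric peak had a mean of 3.84 CPM (a peak's share of its library's counts, on a fixed scale), against 3.02 over all peaks. All peaks were split by mean CPM into 5 groups of equal size. In the strongest group 63.5% of the 680 subtelomeric peaks fell, against 35.1% farther in. In the weakest group 4.58% of 371 fell, against 3.00%. The lower share rose with counts in both sets, whereas the higher share fell. From the weakest group to the strongest, the higher share went from 13.7% to 4.56% near the ends and from 23.4% to 12.0% farther in. At matched strength the median was lower near the ends in each group, from -0.07 against 0.10 in the weakest to -0.36 against -0.13 in the strongest.

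Promoter composition was read from RefSeq windows of 250 bases before to 50 after the gene start, of which 34943 were in hand and none lay on chromosome 8. Under subtelomeric peaks lay 532 such windows, with a median GC content of 72.5%, against 65.7% under peaks farther in. For promoter windows, here and in the next paragraph, peaks farther in are all other peaks, including those outside the autosomes. Where GC was 60 to 70%, 74.7% of the 154 subtelomeric windows lay under a peak that fell, against 49.9% of 6514 farther in. Above 70% GC the shares were 69.3% of 316 and 37.4% of 5956. GC of the peaks themselves was not measured, and its part in the fold changes was not tested.

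The ETS core CCGGAA, on either strand, was in 17.2% of all promoter windows, with or without a peak. Its share was 26.5% under peaks other than subtelomeric ones and 31.2% under subtelomeric peaks. The core was in 37.3% of the 367 windows under subtelomeric peaks that fell, in 19.6% of 148 under peaks not called and in 0 of 17 under peaks that rose. For peaks farther in, the shares were 33.9% where the peak fell and 14.2% where it rose. The CCAAT box (CCAAT, either strand), also added after the results were seen, was in 34.6% of all windows and 33.8% of those under subtelomeric peaks that fell. Its share was 18.9% under subtelomeric peaks not called and 23.5% under those that rose. Farther in it was 38.1% where the peak fell and 32.8% where it rose. The motifs of the original plan were compared with windows under those same other peaks. The AP-1 site TGANTCA was in 1.50% of the 532 windows under subtelomeric peaks, against 5.17% of the 17725 farther in and 7.72% of all windows. The TEAD site GGAATG was in 48 of the 532, in 1945 of those farther in and in 4907 of all 34943. The TonE core, recognised by the osmotic stress factor NFAT5, was in 16.9% against 20.2% both farther in and over all windows. The telomere repeat in tandem was in 0 of the 532 and in 2 of all windows. Its single unit TTAGGG, an added motif, was in 6.02% against 8.33% farther in and 9.04% of all windows. These motifs overlap in part, since GGAAT and GGAAA can extend an ETS core.

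Arms differed in both direction and size. The median log2 fold change was negative on 33 of 39 arms, and 34 arms had more peaks lower than higher. On 23 arms every sorbitol library's median lay below every vehicle library's, on 0 arms above, and on 16 the groups overlapped. The number of arms with a negative median was 25 to 36 under the other scalings, lowest with gene-end factors.

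The end of 19q moved farthest. On 19q 38 of 40 peaks fell and none rose, and the median log2 fold change was -0.76. On 19q the median difference from the vehicle mean was 0.11, 0.06, -0.05 and -0.10 in vehicle and -0.70, -0.69, -0.79 and -0.75 after sorbitol, so the groups lay far apart. This arm ends in a cluster of KRAB zinc finger genes, which encode DNA-binding repressors, and holds 42 protein-coding genes in its outer 1 Mb. Its median stayed between -0.59 and -0.82 under the other scalings.

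Other gene-rich ends followed. On 16p, the arm with the most protein-coding genes (49), 68 of 115 peaks fell and 2 rose (median -0.52). The 8q end, with 39 genes, had 50 of 81 lower and 3 higher (median -0.43). On 22q 43 of 96 fell (median -0.41), and on 11p, with 46 genes, 40 of 88 fell and 1 rose (median -0.36). All 13 arms with 20 or more protein-coding genes had more lower than higher peaks, with medians from -0.76 to -0.13. Of the 12 arms with fewer than 10 protein-coding genes, 7 had a negative median as well. The lowest of these was on 14q, whose end holds the immunoglobulin heavy chain segments and no gene classed as protein-coding. There 11 of 39 peaks fell, 1 rose and the median was -0.39.

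Peaks that rose were found on every arm with subtelomeric peaks except 17q and 19q, and most of all on 7q and 6q. The arms 5p, 15q and 10p had 15, 14 and 11 of them, beside 22, 15 and 11 that fell. On 7q, with 5 protein-coding genes, 20 of 79 peaks rose and 4 fell (median 0.24). The median difference from the vehicle mean on 7q was -0.04, -0.06, -0.02 and 0.12 in vehicle and 0.31, 0.22, 0.29 and 0.10 after sorbitol, and vehicle 4 and sorbitol 4 overlapped. On 6q 19 of 76 rose and 8 fell (median 0.08), and on 2p 11 of 51 rose and 3 fell (median 0.03). The 2p median was -0.04 with a loess offset and -0.01 with factors from unplaced contigs, whereas those of 7q and 6q were positive under every scaling run, at their smallest with the loess offset (0.08 and 0.02). The arms 7q, 6q and 2p were the 3 with more higher than lower peaks.

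Across the 39 arms, the median log2 fold change and the number of protein-coding genes in the outer 1 Mb had a Pearson r of -0.67 and a Spearman rho of -0.69. Without 16p and 11p, the arms farthest from the median gene number, r was -0.66, and without 14q it was -0.73. For peaks away from gene ends r was -0.58. Arms share the 8 libraries and differ in peak number and strength, so these values describe the map and carry no p-value.

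**Figure D3:**
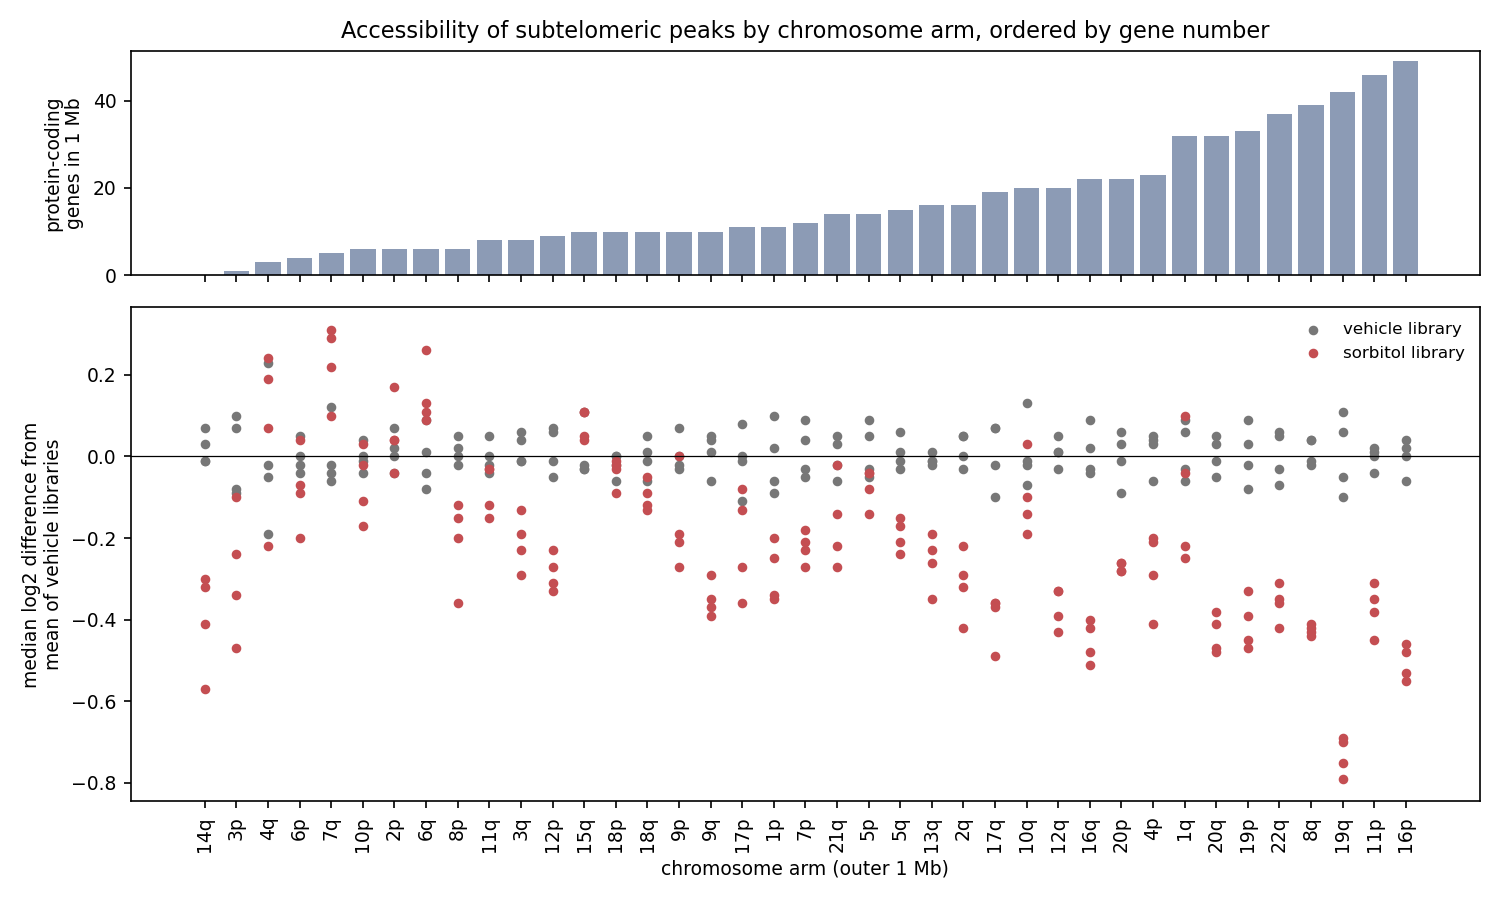
Upper panel, protein-coding genes in the outer 1 Mb of each of 39 arms; lower panel, each library's median log2 difference from the vehicle mean over that arm's subtelomeric peaks, vehicle in grey and sorbitol in red, with arms ordered by gene number. Sorbitol points lie below vehicle points on most gene-rich arms, lowest on 19q (-0.69 to -0.79), and above zero on 7q (0.10 to 0.31).

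The peaks nearest the telomere were described separately, a choice made after the data were seen. GRCh38 begins many arms with a placeholder of unknown bases, and the first peaks of 24 arms had midpoints 10.1 to 11.7 kb from the end. The first peak of the other 15 arms lay 60.4 to 164 kb in. Within 12 kb of an end there were 40 peaks on 24 arms. Of these 26 fell (65.0%), none rose and 39 had a negative fold change, with a median of -0.69. From 12 to 100 kb, 38 of 120 fell (31.7%), 5 rose and the median was -0.27. The first peak of each of the 24 arms had a negative fold change, from -1.38 on 2p to -0.17 on 4q and 13q, and 15 of them fell.

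The 5p peak at chr5:9906-11735 was the strongest of these. Its CPM was 352, 290, 255 and 354 in vehicle and 217, 203, 236 and 173 after sorbitol. The groups did not overlap, and the log2 fold change was -0.68 ± 0.08 (SE; edgeR adjusted p = 7.56e-09).

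The 10p peak at chr10:9896-10468 had 28.0, 27.2, 20.6 and 29.3 CPM in vehicle and 14.5, 12.6, 13.8 and 9.82 after sorbitol. Its log2 fold change was -1.14 ± 0.11 (edgeR adjusted p = 1.87e-11), and every sorbitol library lay below every vehicle library. On 2q the first peak (chr2:242182987-242183668) had 8.34, 4.83, 5.65 and 5.69 CPM in vehicle and 1.48, 2.55, 4.07 and 2.65 after sorbitol, again without overlap. The 12p peak at DDX11L8 (chr12:11248-11637), a pseudogene of the DDX11 helicase family, had 9.81 ± 1.98 CPM in vehicle and 4.20 ± 0.378 after sorbitol (SD, n = 4), and its log2 fold change was -1.30.

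Summed over the 40 peaks, CPM was 814, 693, 632 and 817 in vehicle and 521, 507, 563 and 447 after sorbitol. The groups did not overlap, and they also stood apart without the 5p peak, in percent of counts (0.0462, 0.0403, 0.0377 and 0.0463 against 0.0303, 0.0304, 0.0327 and 0.0274). Vehicle replicate 4 was the highest of its group and sorbitol replicate 4 the lowest. Without both libraries 25 of 40 peaks fell, and the median was -0.61. Near-identical copies of these segments occur at several ends, so the arm a read was assigned to is uncertain and the 40 peaks are not 40 independent sites. Whether the peaks hold telomere repeat was not examined.

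**Figure D4:**
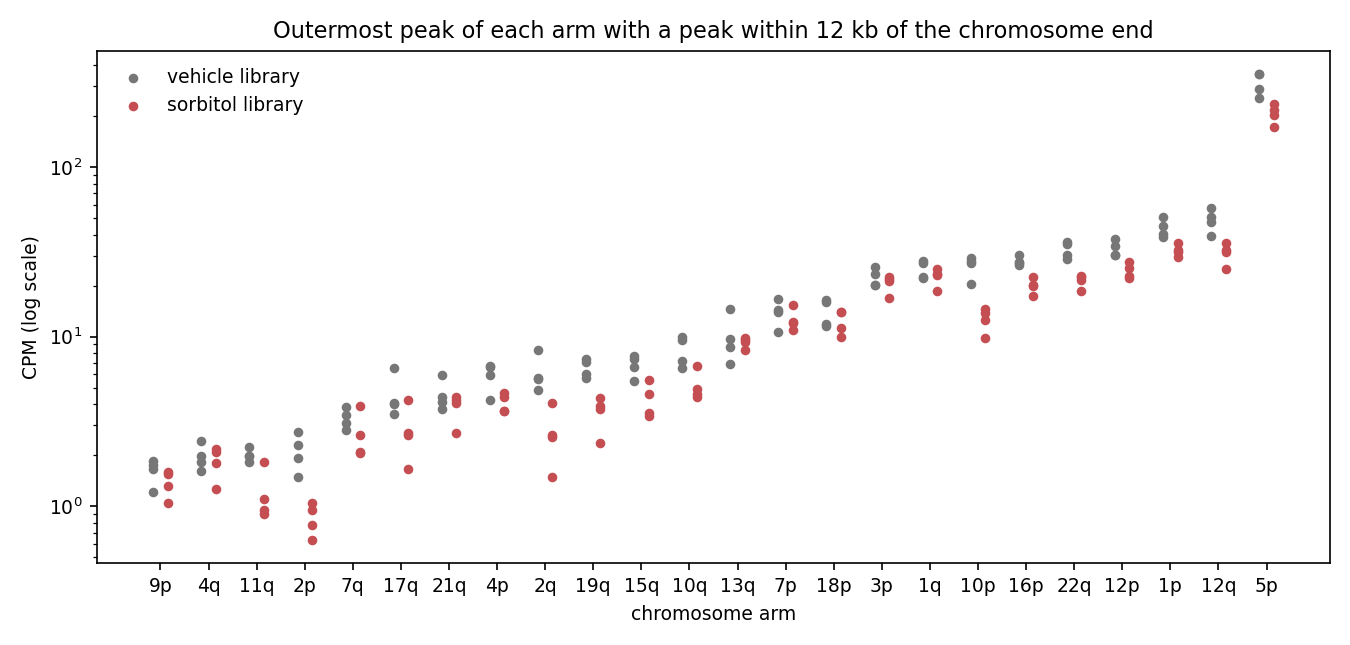
CPM on a log axis in each library for the first peak of the 24 arms that have a peak within 12 kb of the chromosome end, vehicle in grey and sorbitol in red, with arms ordered by their vehicle mean. Red points lie lower than grey on average on all 24 arms, and without overlap on 10; the 5p peak, at 173 to 354 CPM, stands above the rest.

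The duplicated gene families of the subtelomere were followed through 42 genes (WASH, DDX11L, DUX4-like, FRG, TUBB8, RABL2 and others), whose ends carried 55 peaks. Of these 14 fell and 2 rose, and the median log2 fold change was -0.05. The median was 0.12 with gene-end factors and 0.03 with library totals alone, so it had no stable sign. Members split by kind. Of the peaks that fell, 6 lay at DDX11L copies (on 1p, 9p, 12p, 15q and 16p) and 6 at WASHC1 or its pseudogene copies WASH3P, WASH5P, WASH7P, WASH8P and WASH9P. The WASHC1 product is a subunit of a complex that promotes actin assembly on endosomes. At WASH9P on 1p the peak went from 42.1 ± 1.55 to 29.2 ± 3.40 CPM (log2 fold change -0.61, edgeR adjusted p = 4.17e-07). WASH5P on 19p had peaks of both directions. The stronger fell, from 23.1 ± 1.92 to 18.8 ± 1.45 CPM (log2 fold change -0.38, edgeR adjusted p = 0.00206), and a weak one rose, from 0.739 ± 0.226 to 1.73 ± 0.234 CPM. At DUX4-like repeat copies on 4q and 10q, 1 of 29 peaks rose and none fell. Those 29 peaks held 0.0564%, 0.0483%, 0.0509% and 0.0806% of the counts in vehicle and 0.0720%, 0.0638%, 0.0754% and 0.0524% after sorbitol. Vehicle 4 was the highest of all there and sorbitol 4 the lowest of its group, against the order of the remaining libraries.

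Transfer RNA genes, which RNA polymerase III transcribes from promoters inside the gene, stood in a dense cluster at 5q. Subtelomeric peaks at their ends numbered 16, of which 13 fell and none rose, with a median log2 fold change of -0.72. Farther than 1 Mb from an end, 255 of 342 such peaks fell (74.6%, median -0.48). On 5q 13 peaks lay 315 to 441 kb from the end and 11 fell, with a median of -0.66. The remaining 56 peaks of the 5q end had 12 lower and 5 higher and a median of -0.08.

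The 5q peak spanning TRV-CAC1-2 and TRL-AAG1-1, valine and leucine transfer RNA genes, had 69.8, 65.7, 62.1 and 53.5 CPM in vehicle and 30.7, 32.5, 27.8 and 30.6 after sorbitol. The groups lay far apart, and the log2 fold change was -1.13 ± 0.09 (edgeR adjusted p = 8.62e-15). Similar peaks at TRV-CAC1-4 with TRL-AAG1-3 and at TRL-AAG1-2 with TRV-CAC1-3 each had -0.98. On 17q the peak at TRX-CAT1-8, a transfer RNA gene with the anticodon CAT, went from 52.0 ± 1.77 to 29.2 ± 3.11 CPM (-0.91). Transfer RNA genes occur in near-identical copies, so reads may be shared between copies.

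**Figure D5:**
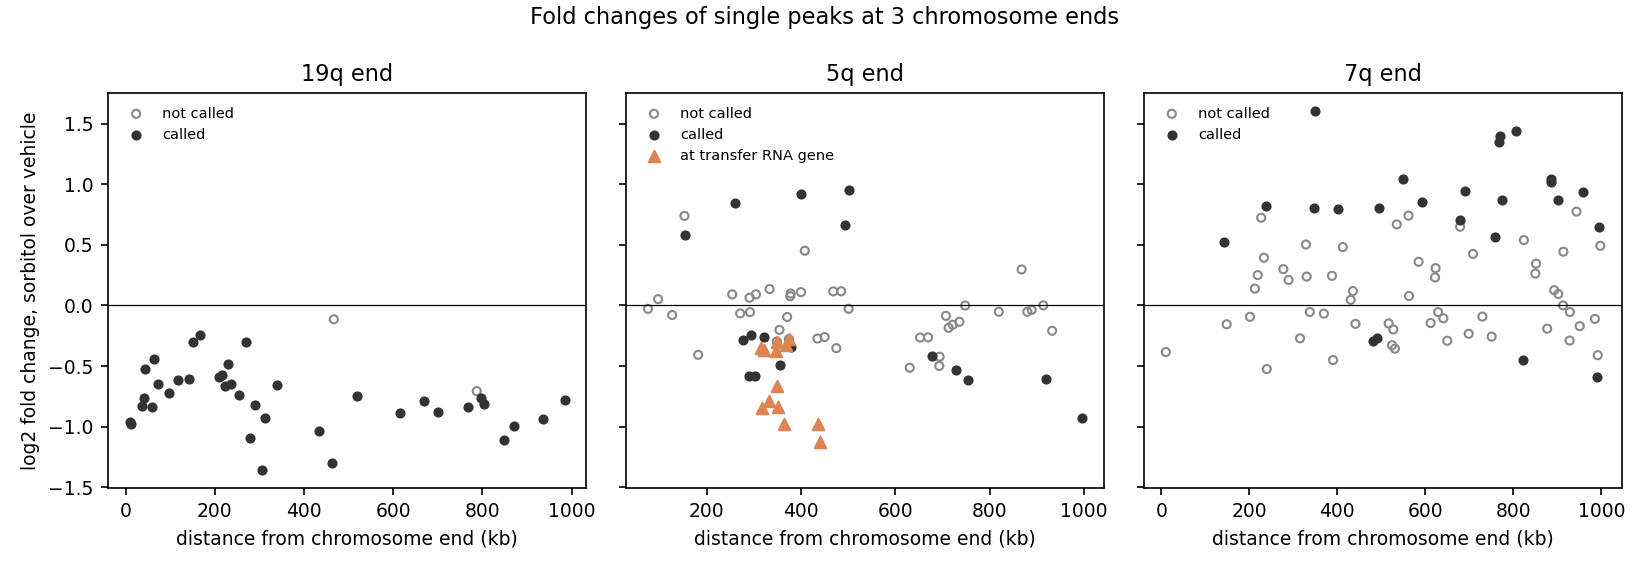
Log2 fold change of each subtelomeric peak against its distance from the end on 19q, 5q and 7q, filled where the edgeR adjusted p passed 0.05 and open where not; triangles mark peaks at transfer RNA genes, called or not. Of the 19q peaks 38 of 40 fell, the 13 triangles of 5q lie 315 to 441 kb from the end, and 20 of the 79 peaks of 7q rose.

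Zinc finger genes formed the most uniform list. The ends of 28 ZNF and ZSCAN genes on 4p, 12q and 19q carried 26 peaks, of which 25 fell and none rose, with a median log2 fold change of -0.81. At every one of the 25 the groups did not overlap. The count was 20 to 25 lower under the other scalings. At ZNF140 on 12q, a KRAB repressor, CPM was 60.3, 60.0, 56.0 and 55.0 in vehicle and 32.3, 30.5, 34.2 and 33.6 after sorbitol, far apart. The log2 fold change was -0.91 ± 0.08 (edgeR adjusted p = 2.07e-12). ZNF274 on 19q, which recruits the histone methyltransferase SETDB1 to zinc finger gene bodies, had 23.8, 20.4, 18.8 and 23.8 CPM in vehicle and 11.4, 12.2, 10.7 and 10.4 after sorbitol (log2 fold change -1.04). ZNF329 with LOC124904784 had -1.30, ZNF586 -1.11 and ZNF605 -1.02. ZNF595 on 4p did not pass, with 5.83 and 5.29 CPM and a log2 fold change of -0.23 ± 0.17 (edgeR adjusted p = 0.313).

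General cell machinery also fell at its gene ends. Across 17 such genes 20 of 24 peaks fell and 1 rose, with a median of -0.45. The lower count was 10 with gene-end factors and 5 with contig factors, and 20 with DESeq2 size factors. The peak shared by MCM3AP, a factor of messenger RNA export, and YBEY on 21q went from 42.1 ± 2.51 to 25.3 ± 2.29 CPM (log2 fold change -0.81, edgeR adjusted p = 4.40e-10). PSMD13, a subunit of the proteasome lid, shares its peak with the mitochondrial deacetylase gene SIRT3 and had -0.79. RPL13, of the large ribosomal subunit, had -0.66 at its stronger peak. The other, over its promoter window, had 21.9 ± 2.10 against 21.4 ± 2.11 CPM (-0.12). CDC34, a ubiquitin-conjugating enzyme, had -0.42 at its stronger peak, over its promoter window, and -1.10 at a weaker one. RPL35A on 3q had the peak that rose, from 9.46 ± 1.03 to 13.5 ± 0.966 CPM, beside another that fell.

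Genes of chromosome structure and telomere upkeep were listed as well. Of 11 peaks at 7 such genes, 7 fell and none rose (median -0.36), and 3 fell with contig factors. RTEL1, a helicase that unwinds telomere loops, had 29.8, 30.4, 28.9 and 28.6 CPM in vehicle and 20.4, 16.6, 14.9 and 16.8 after sorbitol. The groups did not overlap, and the log2 fold change was -0.86 ± 0.10 (edgeR adjusted p = 7.58e-10). NCAPH2, a condensin II subunit, has a peak near its gene end that lies inside SCO2 and TYMP. That peak had 45.0, 46.6, 41.9 and 47.1 against 28.3, 28.4, 28.4 and 28.7 CPM (-0.75). The peak inside NCAPH2, shared with the LMF2 promoter window, had -0.51. NCAPD3, also of condensin II, fell by 0.34 on the log2 scale, and SUN1, which links the nuclear envelope to the cytoskeleton, had 1 of its peaks lower (-0.36). NCAPG2, the remaining condensin II gene listed, had 49.7 ± 1.94 and 48.8 ± 3.32 CPM.

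Genes of osmolyte transport and cell volume were few in these segments. Of 6 listed, 4 had a gene-end peak, and 5 of their 7 peaks fell with none higher (median -0.49), and 1 fell with contig factors. SLC25A22, a mitochondrial glutamate carrier, shares its stronger peak with the PANO1 promoter window. That peak had 39.3, 36.2, 42.3 and 37.9 CPM in vehicle and 27.3, 27.9, 25.1 and 30.4 after sorbitol, without overlap (log2 fold change -0.57 ± 0.09, edgeR adjusted p = 1.24e-06). With contig factors it did not pass (adjusted p = 0.0652). The weaker SLC25A22 peak, shared with an end of CEND1, also fell (-0.42). WNK1, the chloride-sensing kinase that activates ion cotransporters when cells shrink, fell at both of its peaks (-0.49 and -0.56). SLC6A13, a GABA and taurine transporter, had -0.73.

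The alpha-globin neighbourhood on 16p was mixed. Its 15 peaks at 12 genes had 9 lower and 2 higher, with a median of -0.53. The housekeeping neighbours fell, FAM234A by 0.87, LUC7L by 0.77, NPRL3 by 0.53 and AXIN1 by 0.58 on the log2 scale at their first peaks. FAM234A had 26.3, 23.1, 26.1 and 23.0 CPM in vehicle and 13.3, 15.1, 13.7 and 14.7 after sorbitol. Of the globin genes, the HBA2 peak rose from 3.15, 3.16, 3.13 and 3.59 to 6.34, 7.01, 5.38 and 6.27 CPM (log2 fold change 0.86 ± 0.17, edgeR adjusted p = 8.75e-05). HBA1, a near-identical copy with which reads can be shared, had 0.34 and overlapping groups. The weaker HBQ1 peak, at the theta-globin gene, fell from 2.78 ± 0.300 to 1.31 ± 0.122 CPM (-1.17). With contig factors 5 peaks of this neighbourhood fell.

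Interferon response genes of 11p and 6p had few calls, with a median of -0.06 that became 0.11 with gene-end factors. Of 6 peaks at 6 of the 7 genes listed, 1 fell, that of IRF7, the master regulator of type I interferon, from 10.9 ± 1.90 to 6.83 ± 1.26 CPM (log2 fold change -0.75, edgeR adjusted p = 5.01e-05). IFITM1, IFITM2 and IFITM3, which block virus entry, had 0.25, -0.18 and 0.17, none past the threshold. All of these lists were read beside the 51.1% of subtelomeric gene-end peaks that fell and the 4.99% that rose, and no list was tested as a set. At subtelomeric ends of protein-coding genes 59.8% fell and 3.87% rose, and in the strongest group of subtelomeric peaks 63.5% fell. The lists of general machinery and chromosome structure had medians of 24.4 and 23.3 CPM, against 9.07 over all subtelomeric gene-end peaks.

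Single peaks with the smallest p-values showed both directions. The fall with the smallest p-value was inside RPH3AL on 17p, a gene of regulated secretion, at chr17:215810-216394. Its CPM was 16.5, 16.9, 18.9 and 17.2 in vehicle and 4.34, 4.54, 5.72 and 6.27 after sorbitol, far apart. The log2 fold change was -1.81 ± 0.13 (edgeR adjusted p = 2.88e-16). At the shared end of VPS9D1 and ZNF276 on 16q (chr16:89720268-89722884), CPM was 80.4, 70.4, 72.1 and 74.9 in vehicle and 39.1, 40.1, 45.3 and 39.1 after sorbitol (-0.95 ± 0.08, edgeR adjusted p = 2.26e-13). DEAF1, a transcription factor gene that shares its start with TMEM80 on 11p, went from 70.1 ± 9.01 to 37.5 ± 3.00 CPM (-0.99). UBE2M, the NEDD8-conjugating enzyme of 19q, went from 50.5 ± 3.19 to 29.8 ± 2.79 CPM (-0.84).

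Of the 10 rises with the smallest p-values among peaks whose groups did not overlap, 8 lay inside genes. PTPRN2, which encodes a protein of secretory granules and fills much of the 7q end, held 25 of its peaks, of which 8 rose and 2 fell. Its first-ranked peak, at chr7:158539530-158540314, had 2.23, 3.22, 2.52 and 3.18 CPM in vehicle and 9.46, 8.60, 6.94 and 7.17 after sorbitol. The groups did not overlap, and the log2 fold change was 1.44 ± 0.17 (edgeR adjusted p = 3.32e-09). DIP2C on 10p had 6 of 29 inner peaks higher, FAM120B on 6q 5 of 9, ZDHHC11B on 5p 5 of 11 and ADAP1 on 7p 5 of 13.

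Further rises lay inside ZDHHC11B (6.40 ± 0.824 to 12.8 ± 1.81 CPM), a palmitoyltransferase, and inside SPATC1L on 21q (5.03 ± 0.953 to 10.2 ± 1.14 CPM). On 16q a run of 3 peaks rose near CPNE7, a calcium-dependent membrane-binding copine (1.38), inside it (1.01) and inside the dipeptidase gene DPEP1 (1.97), with 0.518 ± 0.154 and 2.18 ± 0.442 CPM at the last. BTNL9 on 5q, PCSK6 on 15q, a proprotein convertase, and ZNF692-DT on 1q also held peaks that rose, with log2 fold changes of 0.66, 1.67 and 0.55. With contig factors BTNL9 and ZNF692-DT did not pass (edgeR adjusted p of 0.0629 and 0.154).

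Gene-end peaks that rose were scarcer, and both named promoters were on 2p. SNTG2, a syntrophin, had 17.3, 17.9, 20.7 and 17.1 CPM in vehicle and 28.6, 31.1, 25.2 and 29.6 after sorbitol, without overlap (0.57 ± 0.09, edgeR adjusted p = 7.16e-06). FAM110C, 46.8 kb from the end of 2p, had 5.65, 4.02, 5.14 and 4.81 against 6.77, 8.68, 7.28 and 8.92 CPM (0.62 ± 0.15, edgeR adjusted p = 0.00150). Both rises failed the threshold with contig factors, at adjusted p of 0.139 and 0.112. Neither promoter sequence printed above holds the ETS core.

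Library totals in the peak table ran from 11522266 to 19831471 counts, with all sorbitol libraries below the vehicle libraries in total. Of the genes chosen as kidney-line markers, LHX1 and GATA3 each had 1 gene-end peak (14.9 and 5.90 CPM), while PAX2 and PAX8 had peaks inside the gene only. The markers of other lineages had no gene-end peak at CD3E and ALB, a weak one at PTPRC (1.16 CPM) and 3 at MYOD1 (up to 21.2 CPM). Accessibility at a gene end does not measure expression, so this check of the line is a weak one.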

How the data were processed

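Omni-ATAC-seq of 4 vehicle and 4 sorbitol libraries was analysed from the table of raw counts per peak that the authors deposited. Per the labels' protocols, libraries were read as 75 bp pairs. The submitters' processing notes name Trim Galore 0.6.10, FastQC 0.12.1, MultiQC 1.28, BWA 0.7.17, SAMtools 1.22, Picard, MACS2 2.2.9.1, bedtools, deepTools 3.5.4, DESeq2 and GRCh38, with no role or order. How peaks were merged, whether reads or fragments were counted, how reads matching several places were treated, and whether starts count from 0 or 1 are not given in the sources used here. Coordinates are printed as in the table. Columns were matched to samples by the replicate number in their names.

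Computed here, with R 4.3.3 and edgeR 4.0.16: filterByExpr (minimum count 10, minimum total 15) left 129487 of 129536 peaks, library factors were TMM, and the quasi-likelihood test had treatment as its only term, with Benjamini-Hochberg adjustment over all tested peaks and a threshold of 0.05. TMM factors were 0.954 to 0.991 in vehicle and 1.01 to 1.04 in sorbitol libraries, so fold changes lie below the ratios of CPM, which use library totals alone. Standard errors were derived from the fold change and the F statistic. DESeq2 1.42.0 served as an alternative.

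Genes came from the RefSeq table of GRCh38.p14. Of its 59792 genes, 789 on patches, alternate or unlocalized sequences carry a chromosome's name and were left out. The table was used without strand, so gene-end peaks mix starts and ends. No genome was used, so peak sequence and GC were not read. The members, lists and tests were chosen with earlier results of these data known. Peaks were named by rule: the 10 with the smallest p-value in each direction without overlap between groups, the 2 in each direction within 100 kb of an end, the first gene-end peak of each list, and list peaks changed at least 2-fold. Other list peaks, the outermost peaks and the arms described were chosen after their values were seen.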

Additional observations from a re-analysis of the deposited data

Results flagged for a closer look

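At the shared end of VPS9D1 and ZNF276 on 16q, sorbitol replicate 3 had 45.3 CPM, while the other 3 sorbitol libraries had 39.1 to 40.1. The gap to its nearest neighbour was 0.850 of the group's range, above Dixon's critical value for 4 samples. All 4 sorbitol libraries still lay below the lowest vehicle library. It was the only one of 78 groups of 4 values at the named peaks and summed shares to stand apart in this way. Chance flags about 1 in 20 such groups, or 3.90 of 78.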

How the results depend on the processing

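Under the other scalings, filters and tests, the median of subtelomeric peaks stayed negative in every run. It was -0.30 with factors from unplaced contigs, -0.08 with gene-end factors and -0.17 with library totals alone. The 805 lower peaks became 377 with contig factors and 533 with gene-end factors. The 188 higher peaks became 74 with contig factors, 329 with gene-end factors, 99 with a mean of at least 50 counts and 104 at an adjusted threshold of 0.01. Within 0.5 Mb of the end 353 fell and 63 rose, and within 2 Mb 1602 fell and 352 rose. The difference in the share of counts was -0.508 points within 2 Mb and -0.352 without the 5 mitochondrial copies on 1p, an alternative added after the data were seen. Leaving out 1 library in turn gave 715 to 809 lower, 134 to 238 higher, medians of -0.27 to -0.24 and share differences of -0.226 to -0.129. Without vehicle 4 and sorbitol 4 together, 786 fell and 243 rose. In 716 comparisons of the 38 named peaks with 19 alternatives, where peaks under a mean of 50 counts lack that filter, 33 peaks kept direction and call throughout and 5 lost the call with contig factors only: SNTG2, BTNL9, ZNF692-DT, FAM110C and SLC25A22. Apart from the windows and thresholds, which change the set by construction, the cause was not tested.

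With the replicate number as a block, 766 subtelomeric peaks fell and 164 rose, and all 930 were among the 993 called without it. Same-numbered libraries did not deviate together (correlations of 7.3e-05, 0.00647, -0.0309 and -0.132), and 1 of 8 libraries correlated best with its own number. With the block the share differed by -0.178 points and the median was -0.25. Dropping the filter on low counts does not bear on the share of counts, nor a stricter threshold on a median, so neither was run for it.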
